A study of Mus musculus with 20 samples.

Results

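Kctd14 encodes a protein of the KCTD family, named for a domain resembling the tetramerisation domain of voltage-gated potassium channels. In XY mouse gonads at embryonic day 11.5 the signal of its single probe stood far above a common reference in C57BL/6J. It did so in both reciprocal F1 crosses too, and much less in 129S1/SvImJ. The probes described were the non-control probes whose gene name in the scanner files was Kctd14, Kctd1, Kctd3, Kctd9, Kctd10, Kctd12, Kctd15 or Kctd17. These 8 genes had 11 of the 41174 gene probes on the array: Kctd1, Kctd3 and Kctd12 had 2 probes each and the other genes 1 each. Kctd14 was picked for its high level in C57BL/6J and the F1 embryos, so its differences along that pattern are given as a description, without a test.

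The study profiled 20 gonad samples on 2-colour Agilent arrays, with 5 arrays for each of 4 genotypes, to compare a pair of inbred strains and their hybrids at the stage when sex determination begins. The groups were C57BL/6J (arrays H1, H2, H3, H4 and K2), 129S1/SvImJ (A3, A4, A6, D4 and G3), (B6x129S1)F1 (C2, C3, C4, E1 and F2) and (129S1xB6)F1 (L1, L2, L4, M3 and M6). No animal was treated, and no allele beyond the strain backgrounds was named for the gonad samples. Each sample was 1 pair of XY gonads freed of the mesonephros, from an embryo with 17 to 21 tail somites, labelled with Cy5. The reference, labelled with Cy3 on every array, pooled gonad pairs (4 XY and 3 XX) and whole embryos (4 XY and 2 XX) of the same age, from a cross of Sox9-ECFP mice on C57BL/6J with CD-1. Each value is therefore the gonad signal relative to a mix of gonads and whole embryos, written as log2 of processed Cy5 over processed Cy3. In whole gonads, a smaller number of expressing cells and less RNA per cell cannot be told apart. Nor can the single Kctd14 probe show whether the rest of the transcript differed as its own stretch did. The replicates are separate gonad pairs by their labels, and whether they came from separate litters was not stated.

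Between 78.4% and 88.3% of gene spots were well above background in Cy5 on each array, and 35040 probes entered the tests. Markers of the gonad's somatic cells stood above the reference for 7 of 8 genes, germ cell markers for 6 of 6 and mesonephros markers for 1 of 5. The mean log2 ratio of 6 supporting-cell genes ran from 1.49 to 2.11 in C57BL/6J and from 1.03 to 1.41 in 129S1/SvImJ, without overlap, and from 1.19 to 1.84 and 1.36 to 1.70 in (B6x129S1)F1 and (129S1xB6)F1. The germ cell list ran from 2.36 to 3.20 in C57BL/6J, from 2.98 to 3.35 in 129S1/SvImJ, and from 3.31 to 4.01 and 3.38 to 3.89 in those crosses. Every list but that of the supporting cells overlapped between the strains, also the endothelial, erythroid, macrophage and mesenchyme lists. The somatic list ran from 2.85 to 3.37 in C57BL/6J and from 2.52 to 3.13 in 129S1/SvImJ. The part of these cell types in the level of Kctd14 was not tested.

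Many KCTD proteins are substrate adaptors: they hold a target on the CUL3 ubiquitin ligase, which marks it for degradation. Others have different partners. KCTD12 is an auxiliary subunit of the GABA-B receptor, KCTD1 and KCTD15 bind the AP-2 transcription factors and dampen their activity, and KCTD3 associates with the HCN3 channel. KCTD10 acts with CUL3 on the small GTPase RhoA, and KCTD17 directs CUL3 to trichoplein, a protein that restrains cilium formation.

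The measured sequences follow, since every Kctd14 value below comes from a single probe. They are 60-base probes from the scanner files, written 5′ to 3′ in lower case. Capitals mark the longest run of bases that the probe shares, on either strand, with any other gene probe on the array.

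Kctd14 probe A_52_P54812: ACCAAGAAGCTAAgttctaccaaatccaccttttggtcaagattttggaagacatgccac
Kctd9 probe A_51_P454638: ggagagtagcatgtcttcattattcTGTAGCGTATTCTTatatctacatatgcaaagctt
Kctd12 probe A_51_P371912: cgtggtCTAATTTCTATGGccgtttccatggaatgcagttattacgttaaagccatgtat
Kctd12 probe A_52_P266065: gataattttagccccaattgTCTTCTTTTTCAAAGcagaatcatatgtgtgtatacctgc
Kctd3 probe A_51_P244453: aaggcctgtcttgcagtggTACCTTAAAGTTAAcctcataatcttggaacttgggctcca
Kctd3 probe A_52_P243102: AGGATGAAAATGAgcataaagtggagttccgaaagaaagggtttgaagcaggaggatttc

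The Kctd14 probe shared at most 13 consecutive bases with another gene probe, and 41.7% of its bases were G or C. No second probe carried the name Kctd14, so the gene has no independent measurement on this array. Kctd9 is shown as the only listed gene that passed a test, described below with its limits. The pairs for Kctd12 and Kctd3 are shown because each measured its gene at separate places: the 2 probes of a gene had no more than 6 bases in a row in common.

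In C57BL/6J the log2 ratio of Kctd14 was 6.05 on array H1, 6.10 on H2, 6.04 on H3, 5.93 on H4 and 5.32 on K2. In 129S1/SvImJ it was 1.86 on A3, 3.43 on A4, 2.97 on A6, 2.73 on D4 and 3.05 on G3. Every C57BL/6J array was above every 129S1/SvImJ array, with a wide gap between 3.43 and 5.32. The lowest value of each strain stood away from its others, A3 in 129S1/SvImJ and K2 in C57BL/6J.

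In (B6x129S1)F1 the log2 ratio was 5.53 on C2, 5.22 on C3, 6.02 on C4, 6.05 on E1 and 5.74 on F2. In (129S1xB6)F1 it was 5.89 on L1, 5.68 on L2, 5.39 on L4, 5.80 on M3 and 5.95 on M6. Both crosses overlapped C57BL/6J and each other, and none of their 10 arrays reached down to 129S1/SvImJ. The probe was well above background in both channels, and not saturated, on all 20 arrays.

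**Figure D1:**
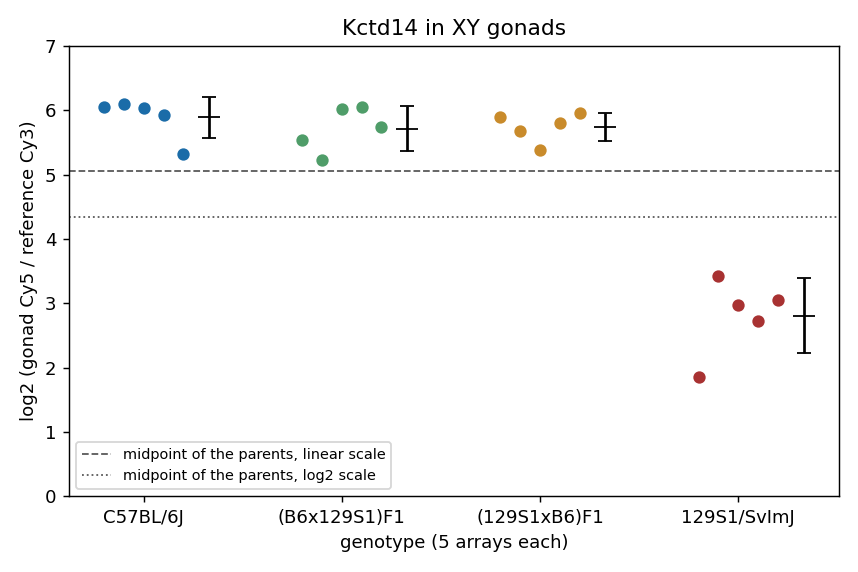
Log2 ratio of gonad Cy5 to reference Cy3 for Kctd14 on each of the 20 arrays (points), by genotype, with the group mean ± SD (bars); the lines mark the midpoint of the parental means on the linear scale (5.05) and on the log2 scale (4.35). The C57BL/6J and F1 arrays lie between 5.22 and 6.10, and the 129S1/SvImJ arrays between 1.86 and 3.43.

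The group means of the log2 ratio were 5.89 ± 0.32 in C57BL/6J, 5.71 ± 0.35 in (B6x129S1)F1, 5.74 ± 0.22 in (129S1xB6)F1 and 2.81 ± 0.59 in 129S1/SvImJ (SD, n = 5 each). In linear terms Kctd14 stood 59.3, 52.5, 53.5 and 7.0 times above the reference. Only 4 tested probes had a higher mean log2 ratio in C57BL/6J, 6 in (B6x129S1)F1 and 7 in (129S1xB6)F1, against 174 in 129S1/SvImJ. The Kctd14 probe was thus among those most raised over the reference in the first 3 genotypes. By the ratio it was still above the reference in 129S1/SvImJ, but the reference signal of this probe was itself lower on those arrays. The geometric mean of its processed Cy3 signal was 118 there and 439 on C57BL/6J arrays.

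C57BL/6J exceeded 129S1/SvImJ by 3.08 ± 0.23 on the log2 scale (SE), or 8.47-fold. (B6x129S1)F1 exceeded 129S1/SvImJ by 2.91 and (129S1xB6)F1 by 2.93, or 7.50-fold and 7.64-fold. Against C57BL/6J, (B6x129S1)F1 differed by -0.18 and (129S1xB6)F1 by -0.15. All 5 of these differences follow the pattern Kctd14 was picked for.

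The difference between the reciprocal crosses, which differ in which strain was the mother, was not itself used to pick the gene. Kctd14 was, however, picked as high in both crosses. A likeness between them is therefore partly built into the choice and is not independent evidence. Kctd14 did not differ detectably between them: the log2 difference of (B6x129S1)F1 from (129S1xB6)F1 was -0.03 ± 0.23 (SE), with a 95% interval from -0.52 to 0.46 (limma, Benjamini-Hochberg adjusted p = 1). Of all tested probes, 0.00571% were called in this comparison, and 3.34% had an unadjusted p under 0.05.

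Each cross was placed between its parents on a scale where -1 is the 129S1/SvImJ mean, 0 the midpoint and 1 the C57BL/6J mean, all in log2 ratio. (B6x129S1)F1 lay at 0.886 ± 0.147 and (129S1xB6)F1 at 0.904 ± 0.148 (SE). Single arrays ran from 0.568 on C3 to 1.11 on E1 in the first cross and from 0.674 on L4 to 1.04 on M6 in the second. On the linear scale the midpoint of the parental ratios is 33.1, which is 5.05 in log2 and 0.84 below C57BL/6J. The crosses exceeded that linear midpoint by 0.66 ± 0.22 and 0.69 ± 0.22 (SE).

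The separate channels gave another picture of the size of the difference and of the place of the F1 crosses. The Cy5 signal from the gonads, in the scanner's arbitrary units after its processing, ran from 19039 to 40968 in C57BL/6J and from 435 to 1453 in 129S1/SvImJ. It ran from 8725 to 17973 in (B6x129S1)F1 and from 12403 to 19998 in (129S1xB6)F1. In Cy5 alone C57BL/6J exceeded 129S1/SvImJ by 4.98 ± 0.28 (SE), or 31.5-fold. Every (B6x129S1)F1 array lay below every C57BL/6J array in Cy5, and only L2 of (129S1xB6)F1 reached above the lowest of them.

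The Cy3 signal of Kctd14, from the reference pool, also differed with the genotype of the gonads on the array. It ran from 287 to 689 on C57BL/6J arrays, from 189 to 481 on (B6x129S1)F1 arrays, from 223 to 391 on (129S1xB6)F1 arrays and from 104 to 135 on 129S1/SvImJ arrays. No 129S1/SvImJ array reached the Cy3 level of any other array. The strain difference in Cy3 was 1.90 on the log2 scale, or 3.72-fold, and it was larger than that of 99.997% of tested probes, whose central 95% lay between -0.31 and 0.14. Before the scanner's normalization, net Cy3 showed the same order, 3.1-fold higher on C57BL/6J arrays. Because the ratio divides by Cy3, it gave a smaller strain difference than Cy5 did.

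**Figure D2:**
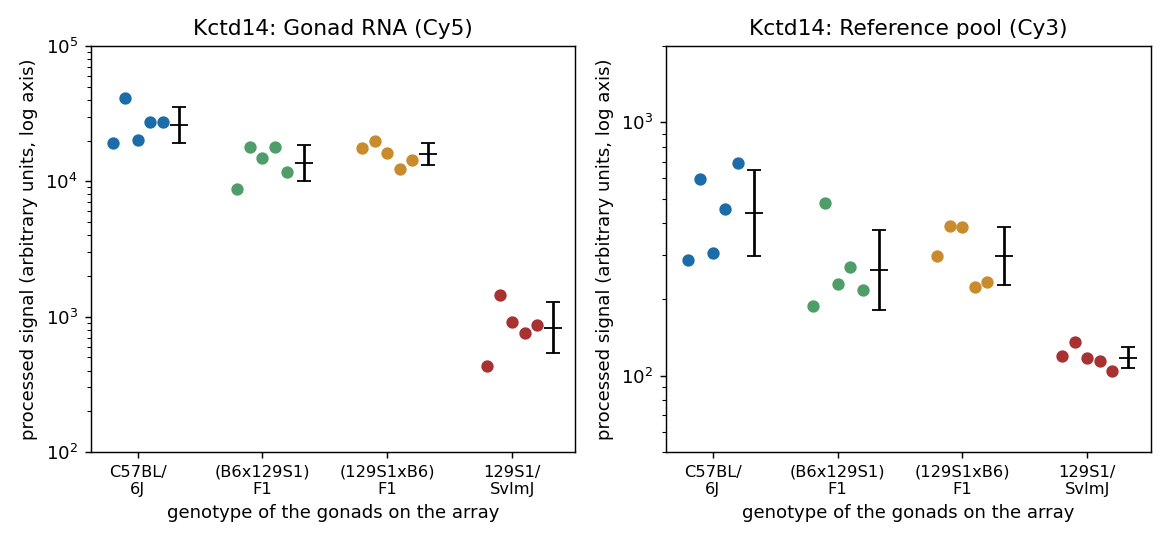
Processed signal of the Kctd14 probe on each array (points; log axes, arbitrary units) in the gonad channel, Cy5 (left), and the reference channel, Cy3 (right), by genotype of the gonads, with the mean of log2 values ± SD (bars). Cy5 on 129S1/SvImJ arrays lies between 435 and 1453, and Cy3 on those arrays between 104 and 135, below all other arrays in both panels.

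This behaviour of Cy3 was set against other probes. Of the 79 tested probes more than 4-fold higher in C57BL/6J by Cy5, the median Cy3 difference was -0.06 on the log2 scale and 26 lay above 0. Only 6 of the 79, Kctd14 among them, had a mean log2 ratio over 4 in C57BL/6J, and in the other 5 (AK033125, H2ap, Prl8a2, Il15 and Fancg) Cy3 differed by -0.18 to 0.16. Another set held the 59 other tested probes with a mean log2 ratio over 4, whatever their strain difference. It did not include all 5 of the probes just named. By Cy5 the strain differences of the 59 ran from -3.03 to 2.53, all smaller than the 4.98 of Kctd14. Their Cy3 strain differences ran from -0.92 to 0.68, with a median of -0.09. Over the 20 arrays the log2 Cy5 and Cy3 signals of Kctd14 had a correlation of 0.891, and 0.618 after group means were subtracted. These points share arrays, spots and dye normalization. What moved the Cy3 signal of Kctd14 was not tested.

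Placed between the parents by Cy5 alone, (B6x129S1)F1 lay at 0.629 ± 0.102 and (129S1xB6)F1 at 0.715 ± 0.104 (SE). By Cy5 the crosses differed from C57BL/6J by -0.92 and -0.71 on the log2 scale, or 1.90-fold and 1.64-fold, compared with 1.13-fold and 1.11-fold by the ratio. The linear midpoint of the parents was 0.95 below C57BL/6J in Cy5, and the crosses lay 0.03 ± 0.27 and 0.24 ± 0.27 above it (SE). The 95% intervals of these Cy5 excesses ran from -0.53 to 0.60 and from -0.32 to 0.81. F1 levels well above the linear midpoint were therefore seen in the ratio, for a gene picked as high in the crosses. By Cy5 both intervals spanned the midpoint. That of (B6x129S1)F1 ended below the 0.66 found by the ratio, and that of (129S1xB6)F1 reached past its 0.69. The ratio and Cy5 come from the same spots, and the gap between them was not tested. Normexp and loess normalization gave an intermediate result: a strain difference of 3.90, positions of 0.789 and 0.849, and excesses over the linear midpoint of 0.50 and 0.61.

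The arrays lay on 5 slides. Slide 1 held only the parental strains, slide 5 only the F1 crosses, and slides 2, 3 and 4 held 1 array of each genotype. Within slides 1, 2, 3 and 4 the strain difference of Kctd14 was 3.75, 2.68, 2.36 and 2.87 on the log2 scale. Since 129S1/SvImJ overlapped no other genotype, the direction of its differences within slides was fixed in advance, and only their sizes are informative. Within slides 2, 3 and 4, (B6x129S1)F1 exceeded 129S1/SvImJ by 2.32, 2.26 and 2.48, and (129S1xB6)F1 by 1.96, 2.71 and 2.84. The difference between the crosses was 0.36, -0.46, -0.36 and 0.16 within slides 2 to 5, with no common sign.

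None of the 10 probes for the 7 other listed genes was called between the strains (limma, Benjamini-Hochberg adjusted p under 0.05). Of all tested probes 5.47% were called, and 15.1% had an unadjusted p under 0.05, as did 2 of these 10. Their strain differences ran from -0.36 to 0.29 on the log2 scale with a median of -0.06, and the median over all tested probes was 0.00. None came near the size of the Kctd14 difference.

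Kctd12, the GABA-B receptor subunit, was the listed gene lowest relative to the reference. By probe A_51_P371912 its log2 ratio averaged -1.49 ± 0.53 in C57BL/6J, -1.44 ± 0.24 in (B6x129S1)F1, -1.45 ± 0.25 in (129S1xB6)F1 and -1.78 ± 0.37 in 129S1/SvImJ (SD, n = 5 each). By probe A_52_P266065 it averaged -1.55 ± 0.53, -1.38 ± 0.29, -1.21 ± 0.35 and -1.65 ± 0.48 in the same order. The groups overlapped by both probes, and the probes followed each other over the 20 arrays (r = 0.91).

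Kctd17, the trichoplein adaptor, and Kctd15, the AP-2 inhibitor, also lay below the reference in every genotype. Kctd17 averaged between -1.22 in (B6x129S1)F1 and -0.97 in 129S1/SvImJ, and Kctd15 between -0.77 in C57BL/6J and -0.45 in (129S1xB6)F1. Kctd10, the RhoA adaptor, lay slightly above it, between 0.17 in C57BL/6J and 0.39 in 129S1/SvImJ. Kctd3 averaged between -0.36 and -0.27 by probe A_51_P244453 and between -0.14 and 0.17 by probe A_52_P243102, with r = 0.69 between the probes over the 20 arrays. The arrays of any pair of genotypes overlapped in each of these 4 genes.

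Kctd1, the other AP-2 inhibitor in the list, gave different answers by its probes, whose values had r = 0.19 over the 20 arrays. By probe A_52_P137637 the log2 ratio had a lowest, median and highest value of -0.81, -0.39 and -0.07 in C57BL/6J and of -0.16, -0.04 and 0.06 in 129S1/SvImJ. The strain difference was -0.36 ± 0.11 (SE; limma, adjusted p = 0.053), which misses the threshold. Without array H4, the highest of C57BL/6J, it was -0.45 and passed (adjusted p = 0.0095), and it also passed under normexp and loess (-0.29, adjusted p = 0.026). By probe A_51_P437847 the strain difference was -0.06 ± 0.14. All arrays of both F1 crosses lay below all 129S1/SvImJ arrays by probe A_52_P137637, with differences of -0.26 and -0.22 that were not called (limma, adjusted p = 0.33 and 0.58). For (129S1xB6)F1 this was almost a tie, since its array L4 and the 129S1/SvImJ array A4 both stood at -0.16. Of all probes, 1.1% and 0.726% had every array lower in those comparisons.

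Kctd9, a family member with a run of pentapeptide repeats, gave the only call among these probes over the 6 comparisons. Its log2 ratio was 0.11 on H1, 0.41 on H2, 0.38 on H3, 0.33 on H4 and 0.35 on K2 in C57BL/6J. In (B6x129S1)F1 it was 0.74 on C2, 0.68 on C3, 0.76 on C4, 0.65 on E1 and 0.74 on F2, all above the highest C57BL/6J value. The difference was 0.40 ± 0.10 (SE), or 1.32-fold (limma, adjusted p = 0.041). In that comparison 1.56% of tested probes were called, 0.768% as higher, and 2.09% had every array higher. The call was lost in 14 of 20 fits that each left out 1 array, with adjusted p between 0.024 and 0.115; these 14 included every array of both groups and L2, L4, M3 and D4 of the others. The difference itself ran from 0.35 to 0.42 over the 20 fits. The call was also lost in 7 of 9 other alternatives: normexp and loess (adjusted p = 0.068), the deposited ratios (0.11), median centring (0.052), no filter on dim probes (0.056), the slide as a block (0.19), the letter of the sample name as a random block, with its estimated correlation (the letter block; 0.17), and Cy5 alone, where the difference was 0.05 (0.94).

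In (129S1xB6)F1 Kctd9 averaged 0.60 ± 0.21 and in 129S1/SvImJ 0.56 ± 0.11 (SD, n = 5 each), against 0.72 ± 0.05 in (B6x129S1)F1 and 0.32 ± 0.12 in C57BL/6J. The difference of (129S1xB6)F1 from C57BL/6J was 0.28 ± 0.10 (SE; adjusted p = 0.29), and C57BL/6J differed from 129S1/SvImJ by -0.24 ± 0.10 (adjusted p = 0.20). C57BL/6J was thus the lowest genotype on average, but its arrays overlapped those of 129S1/SvImJ and of (129S1xB6)F1. The other 3 genotypes also overlapped one another. None of the 10 probes was called in the remaining 4 comparisons, where 0.00571%, 1.05%, 1.06% and 0.87% of all tested probes were called for (B6x129S1)F1 against (129S1xB6)F1, (129S1xB6)F1 against C57BL/6J, and the respective crosses against 129S1/SvImJ. At an unadjusted p under 0.05 there were 0, 1, 1 and 0 of the 10, where all tested probes gave 3.34%, 8.24%, 12.1% and 8.96%; for (B6x129S1)F1 against C57BL/6J it was 1 of the 10, and 11.5% of all.

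**Figure D3:**
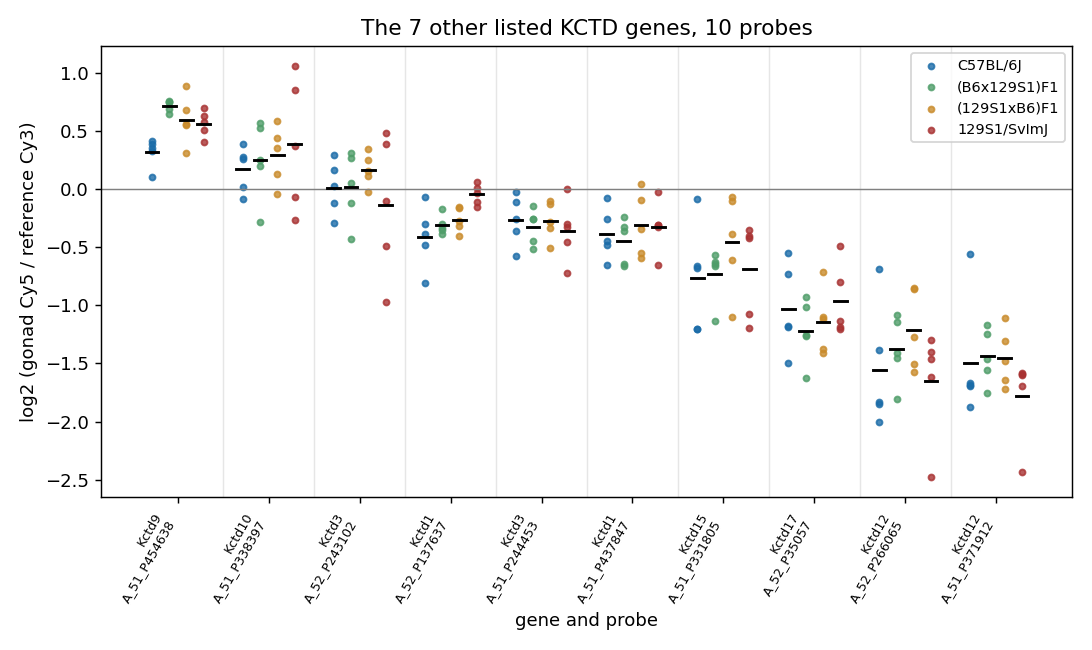
Log2 ratio on each array (points) and group mean (black lines) for the 10 probes of the 7 other listed KCTD genes, coloured by genotype and ordered by their mean. Group means lie between -1.78 and 0.72, and in Kctd9 every (B6x129S1)F1 array lies above every C57BL/6J array.

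The other genes of the family were read from a list of 17, chosen with earlier results of these data known. Of these 15 had tested probes, 26 in all, and Kctd21 and Kcnrg were not among the named probes. Kctd21 lies close to Kctd14 in the gene table, just beyond Alg8, and was not analysed here. Between the strains 2 of the 26 probes were called, both higher in C57BL/6J, and none lower, where 3.11% of all tested probes were called higher and 2.35% lower. The median difference of the 26 was 0.01 on the log2 scale.

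Kctd5, a CUL3 adaptor that acts on G protein beta-gamma subunits, was higher in C57BL/6J by 0.76 ± 0.12 with probe A_52_P61758 (SE; limma, adjusted p = 4.3e-04). Its group means by that probe were 0.07 in C57BL/6J, -0.22 in (B6x129S1)F1, -0.14 in (129S1xB6)F1 and -0.69 in 129S1/SvImJ, and the strains did not overlap, as was so for 5.18% of all probes. Its other probe, A_51_P305250, gave a strain difference of 0.07 ± 0.11 (adjusted p = 0.87). Kctd6, a CUL3 adaptor that directs the degradation of HDAC1 and so limits Hedgehog signalling, was higher in C57BL/6J by 0.62 ± 0.15 (adjusted p = 0.012), with overlapping arrays. That call was lost with the letter block (adjusted p = 0.053), with Cy5 alone (adjusted p = 0.062) and with only the arrays compared.

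In the F1 comparisons the family gave 1 call. Kctd5 by probe A_52_P61758 was higher in (129S1xB6)F1 than in 129S1/SvImJ by 0.55 ± 0.12 (adjusted p = 0.037), where 0.631% of tested probes were called higher. The call was lost in 10 of 20 fits without 1 array, with adjusted p up to 0.12 there. Those arrays were all 5 of (129S1xB6)F1, A3, A6 and D4 of 129S1/SvImJ, C3 and H3. It was also lost in 6 of 8 other alternatives: the deposited ratios (adjusted p = 0.058), the letter block (0.13), normexp and loess (0.16), only the arrays compared (0.24), Cy5 alone (0.34) and the slide as a block (difference 0.36, adjusted p = 0.35). For (B6x129S1)F1 against 129S1/SvImJ the same probe gave a difference of 0.47 ± 0.12 (adjusted p = 0.079). Kctd12b, a relative of Kctd12, differed by -1.18 between (B6x129S1)F1 and 129S1/SvImJ by probe A_51_P123564 (adjusted p = 0.053), which only 1 of that cross's 5 arrays measured well above background. Its probes A_52_P129486 and A_52_P224348, well above background on all 20 arrays, gave -0.12 and -0.06.

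Genes for known partners of KCTD proteins, also a list chosen with earlier results known, comprised 21 genes with 36 tested probes. They covered the CUL3 ligase and the NEDD8 pathway that activates it, GABA-B receptors and G protein beta subunits, AP-2 factors, HDAC1 with its Hedgehog targets, RhoA, trichoplein and HCN3. Between the strains 3 probes were called, 2 higher and 1 lower in C57BL/6J, with a median of 0.04 on the log2 scale over the 36. Of all tested probes 5.47% were called, 3.11% higher and 2.35% lower. Cul3 itself, Rbx1 and the receptor subunits Gabbr1 and Gabbr2 were not called.

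Ube2m, the enzyme that conjugates NEDD8 to cullins, was higher in C57BL/6J by both of its probes, 0.87 ± 0.13 by A_51_P100246 and 0.83 ± 0.15 by A_52_P665386 (SE; limma, adjusted p = 2.4e-04 and 0.0011). The strains did not overlap by either probe, as was so for 5.18% of all probes. These calls held in all 20 fits that left out 1 array. Compared with C57BL/6J, Ube2m differed in (B6x129S1)F1 by -0.60 ± 0.13 by A_51_P100246 (adjusted p = 0.025) and by -0.54 ± 0.15 by A_52_P665386 (adjusted p = 0.078), where 0.796% of tested probes were called lower. The first of these was lost without C2, C3, H1, H2 or H3, with adjusted p up to 0.087, and with the letter block (adjusted p = 0.14). Hdac1 was lower in C57BL/6J than in 129S1/SvImJ by 0.82 ± 0.18 by its only tested probe (log2 difference -0.82, adjusted p = 0.0087), without overlap, and by Cy5 alone the call was lost (adjusted p = 0.062).

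Kctd14 lies on chromosome 7. The 10 measured genes on each side of it, in the order of the RefSeq gene table for GRCm38.p6, were read at their brightest probe. Between the strains 1 was called higher and 1 lower, where 3.11% and 2.35% of all tested probes were, and the 20 differences ran from -0.70 to 0.60 with a median of 0.08 on the log2 scale. Of the 20, 11 had an unadjusted p under 0.05, where 15.1% of all tested probes did. None reached the size of the Kctd14 difference.

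Before Kctd14 in that order, the nearest gene Thrsp, a regulator of lipid synthesis, differed by -0.60 ± 0.16, that is 1.51-fold lower in C57BL/6J (limma, adjusted p = 0.028). It was lost without A3, D4, G3, H2 or H4 (adjusted p up to 0.088), under normexp and loess (0.079), with the letter block (0.10) and with only the arrays compared (0.082). Ndufc2, a subunit of respiratory complex I, differed by 0.03 and Alg8, a glucosyltransferase of N-glycan assembly, by 0.39 (adjusted p = 0.97 and 0.15). After Kctd14, the nearest were Ints4, a subunit of the Integrator complex (difference -0.31), Aamdc (0.31) and Rsf1, a chromatin remodelling factor (0.13), with none called (adjusted p = 0.64, 0.18 and 0.81). Myo7a, an unconventional myosin and the 7th gene on that side, was higher in C57BL/6J by 0.60 ± 0.15 (adjusted p = 0.017). Without A3 its adjusted p was 0.052, by Cy5 alone 0.17 and with the letter block 0.077. In the other 5 comparisons no neighbour was called, with 2, 4, 2, 5 and 1 of 20 at an unadjusted p under 0.05 (in the order between the crosses, (B6x129S1)F1 and (129S1xB6)F1 against C57BL/6J, and these crosses against 129S1/SvImJ). All tested probes gave 3.34%, 11.5%, 8.24%, 12.1% and 8.96% there.

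**Figure D4:**
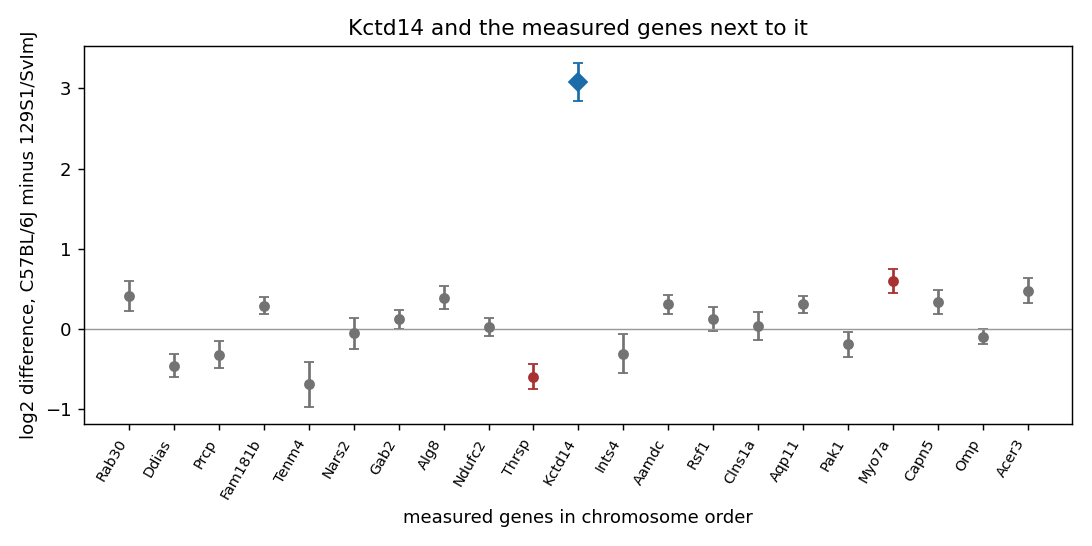
Difference in mean log2 ratio between C57BL/6J and 129S1/SvImJ (± SE) for Kctd14 (blue diamond) and the 10 measured genes on each side in chromosome order, with called genes in red; distances are not to scale. Kctd14 lies at 3.08 and its neighbours between -0.70 and 0.60.

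The genes whose pattern was most like that of Kctd14 were ranked by Pearson correlation of log2 ratios over the 20 arrays, among 34950 probes with a value on each. These points share arrays, slides and the 4 genotypes. The top 5 were Ptprg (r = 0.946), a receptor tyrosine phosphatase, Rprd1b (0.942), which binds the RNA polymerase II tail, Prim2 (0.938), a primase subunit, Rrp7a (0.934), a ribosomal RNA processing factor, and Pold3 (0.934), a DNA polymerase delta subunit. They lie on chromosomes 14, 2, 1, 15 and 7. In each of the 5, every 129S1/SvImJ array lay below every array of the other genotypes. Since the ranking uses the same arrays, their strain differences are given only as values.

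The strain differences of these 5 probes were 5.02 for Ptprg, 1.97 for Rprd1b, 3.93 for Prim2, 2.74 for Rrp7a and 2.14 for Pold3. Other probes of the same genes gave other values: 0.81 for Ptprg, -0.25 for Rprd1b, -0.34 for Prim2, 0.03 for Rrp7a, and -1.60 and 0.38 for Pold3. No other probe of these genes showed a positive difference of like size, and the -1.60 of Pold3 probe A_51_P490397 was large in the opposite direction. For Kctd14 no other probe could be set beside its own.

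By the ratio, the F1 crosses of these probes lay lower between the parents than those of Kctd14. By Cy5 alone Kctd14 lay nearer to them. Their positions ran from 0.363 for Rrp7a in (B6x129S1)F1 to 0.626 for Ptprg in (129S1xB6)F1, where Kctd14 had 0.886 and 0.904 by the ratio and 0.629 and 0.715 by Cy5. Against the linear midpoint of the parents the crosses differed by -0.07 to 0.26 on the log2 scale. Their Cy3 signals differed between the strains by -0.14 to -0.04, compared with 1.90 for Kctd14. The difference in F1 position between these probes and Kctd14 was not tested, since both were picked on these arrays.

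**Figure D5:**
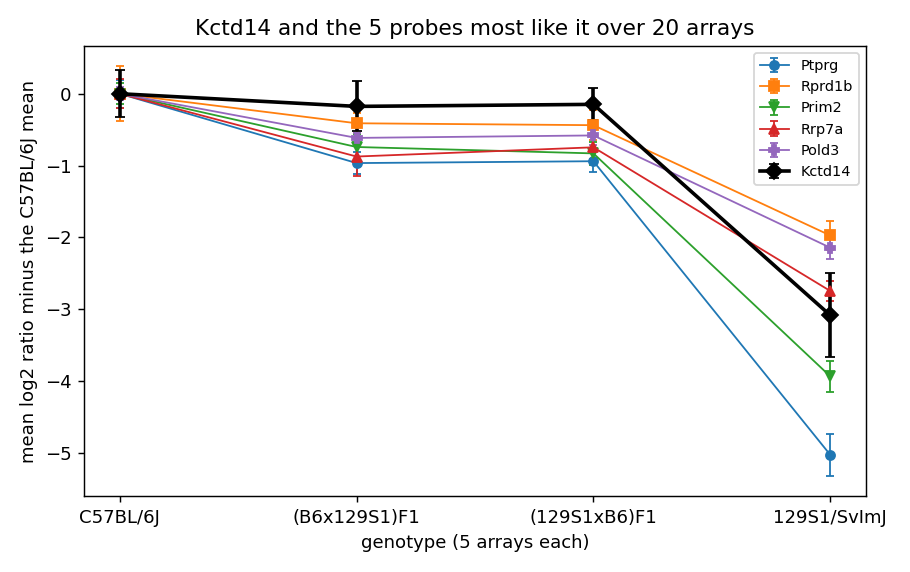
Mean log2 ratio of each genotype minus the C57BL/6J mean (± SD of 5 arrays) for Kctd14 (black) and the 5 probes most correlated with it over 20 arrays. All are lowest in 129S1/SvImJ, and the F1 means of Kctd14 lie 0.18 and 0.15 below C57BL/6J, closer than those of the other 5. By Cy5 alone, not drawn here, the Kctd14 differences were -0.92 and -0.71.

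After each genotype's mean was subtracted, another set of probes followed Kctd14 from array to array: Cdan1 (r = 0.937), Fblim1 (0.921), Ube2q1 (0.904), Glb1 (0.903) and Cdyl2 (0.886). They lie on chromosomes 2, 4, 3, 9 and 8, and none of these 5 probes was called between the strains. Each of these 5 probes had its largest SD within 129S1/SvImJ, where Kctd14 also varied most, but to unlike degrees. That SD was 0.23 for Cdan1 and 0.70 for Fblim1, the widest. For Glb1 it was 0.44, close to the 0.39 in C57BL/6J. Among the listed relatives, the same measure was 0.75 and 0.68 for the probes of Kctd3, 0.67 for Kctd10 and between -0.22 and 0.26 for the rest. Over the 20 arrays without that subtraction, r with Kctd14 ran from -0.63 for Kctd1 probe A_52_P137637 to 0.43 for Kctd3 probe A_52_P243102.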

How the data were processed

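RNA from 20 XY gonad pairs was measured on 2-colour Agilent arrays read with Agilent Feature Extraction 9.1.3.1, per the file headers. The deposited scanner files give each spot's intensity in Cy5 (gonad) and Cy3 (reference pool) after the scanner software's background subtraction and dye normalization, per the file headers. The table of values deposited by the authors holds log2 ratios; they correlated with the scanner ratios (r = 0.935 to 0.960 per array, slopes of 1.02 to 1.04) and served as an alternative. A genome build is not given in the sources used here.

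For each array, log2 of processed Cy5 over processed Cy3 was computed, control spots and spots marked as outliers were left out, and spots of 1 probe were averaged. All 20 arrays in 4 groups were fitted with limma 3.58.1 in R 4.3.3. Tested probes had a Cy5 signal that the scanner software marked as well above background on 4 or more of the 5 arrays of some group, and were called at a Benjamini-Hochberg adjusted p under 0.05 over all 35040 tested probes of a comparison. All adjusted p-values are from that fit unless another setting is named. The number of arrays limits the precision: the median standard error of the strain difference was 0.16. Positions between parents carry errors by propagation from the same fit. The fit was tested on simulated data.

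Named were every listed probe, called members of the family, partner and neighbour lists, the nearest 3 neighbours on each side and the 5 probes most like Kctd14 by each measure. Kctd12b was named after its values were seen, as were the 5 probes set beside the Cy3 signal of Kctd14. Probe names followed the scanner files, updated through RefSeq (GRCm38.p6). The members and lists were chosen with earlier results of these data known. Alternatives were normexp (offset 50) with loess, the deposited values, median centring, no filter, slide as a block, the letter of the sample name as a random block, the brightest probe per gene, only the arrays compared, each array left out and values within slides. Cy5 alone was added after the Cy3 values of Kctd14 were seen.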

Additional observations from a re-analysis of the deposited data

Results flagged for a closer look

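In 6 of the 44 sets of 5 arrays (11 probes in 4 genotypes), the highest or lowest array stood apart from the other 4 by more than Dixon's critical value of 0.71; chance flags about 1 in 20 such sets. For Kctd14, array K2 was lowest in C57BL/6J at 5.32, and K2 also had the highest Cy3 signal for the probe, 689. K2 was the high array for Kctd12 probe A_51_P371912 in C57BL/6J at -0.56, where the next was -1.66. Array A3 was lowest in 129S1/SvImJ for both Kctd12 probes, at -2.44 by A_51_P371912 and -2.48 by A_52_P266065. Array H1 was lowest in C57BL/6J for Kctd9 at 0.11, and array C2 lowest in (B6x129S1)F1 for Kctd15 at -1.13. All are log2 ratios.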

How the results depend on the processing

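Kctd14 stayed higher in C57BL/6J and in both crosses than in 129S1/SvImJ under every alternative run. Leaving out 1 array or comparing within slides could not turn these signs, since 129S1/SvImJ overlapped no other genotype. Without 1 array its strain difference ran from 2.85 to 3.24, and the positions of (B6x129S1)F1 and (129S1xB6)F1 from 0.803 to 0.965 and from 0.820 to 0.961. Cy5 alone placed the crosses at 0.629 and 0.715, and (129S1xB6)F1 lay at 0.729 with the slide as a block, 0.466 within slide 2 and 1.30 within slide 3; the cause of the slide values was not tested.

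Counts of called probes moved more. The main counts were 1915 (strains), 2 (between the crosses), 548 and 368 ((B6x129S1)F1 and (129S1xB6)F1 against C57BL/6J), and 371 and 305 (against 129S1/SvImJ). Normexp with loess gave 0 between the crosses, 354 and 240 against C57BL/6J, and 236 for (B6x129S1)F1 against 129S1/SvImJ. The slide block gave 201 for (129S1xB6)F1 against 129S1/SvImJ. The letter block gave 1224 between strains, 218 and 153 against C57BL/6J, and 219 and 175 against 129S1/SvImJ. Cy5 alone gave 1096, 1, 333, 201 and, for (129S1xB6)F1 against 129S1/SvImJ, 155. With only the arrays compared, fewer arrays in the fit gave 231 for (129S1xB6)F1 against C57BL/6J, and 226 and 193 against 129S1/SvImJ. Without 1 array the counts ran from 1513 to 1930, 2 to 5, 276 to 683, 243 to 388, 254 to 463 and 201 to 343, in the order of the main counts. They moved over 1.5 times without E1 (5, between the crosses), C4 (276), F2 (357), H2 (315) or H3 (327) for (B6x129S1)F1 against C57BL/6J, M6 (243) and M3 (201) for (129S1xB6)F1.

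Signs turned with a shift of over 1 standard error only in differences that were called neither way. With the slide as a block, against C57BL/6J these were Kctd15 (-0.37 and -0.094 for the (B6x129S1)F1 and (129S1xB6)F1 crosses), Kctd10 (-0.30 and -0.26), Kctd3 probe A_52_P243102 (-0.35 and -0.19) and Kctd17 (0.050 and 0.12). Against 129S1/SvImJ they were that Kctd3 probe (-0.19 and -0.042) and, for (129S1xB6)F1, Kctd15 (-0.17), Kctd9 (-0.061) and Kctd17 (0.061). By Cy5 alone they were Kctd3 probe A_51_P244453 (-0.054 between strains, -0.30 and -0.11 for the crosses against 129S1/SvImJ), Kctd9 (-0.0022 between the crosses, -0.23 and -0.23 against 129S1/SvImJ) and Kctd12 probe A_52_P266065 ((B6x129S1)F1 against C57BL/6J -0.20, against 129S1/SvImJ -0.24). The causes were not tested. The digits in the sample names recur within a group (C2 and F2, H2 and K2, A3 and G3), so they were not used to pair samples across groups; arrays sharing a slide were compared by the slide block and within slides.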
